A study of Mus musculus with 4 samples.

Results

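Cell cycle genes were followed through the cell types of the growing end of the mouse thigh bone. The set holds 45 genes, taken by symbol from a fixed list of S phase and G2/M genes, and all 45 had a row among the 55416 features of the deposited matrices. By role there are 3 D cyclins, 2 E cyclins, 8 replication genes, 3 nucleotide synthesis genes, 9 mitotic cyclins and kinases, 5 checkpoint and anaphase-promoting complex genes, 7 chromosome and kinetochore genes, and 8 spindle and cytokinesis genes. Of these, 13 were counted as S phase and 27 as G2/M, while the 3 D cyclins, Stmn1 and Cks2 were assigned to neither.

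Femoral epiphyseal cells came from wild-type mice aged 7, 8, 10 or 12 days after birth. Each age gave 1 library, and neither a treatment nor a mutant allele was present in any group. The labels do not say how many animals each library pooled. Cells were dissociated enzymatically, red blood cells were removed, and droplet libraries were read from the 3′ end of transcripts with unique molecular identifiers (UMIs). The digestion step of the submitted protocol names bowel cancer tissue, whereas every sample label names the epiphysis, and the cartilage markers below match the label.

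Cells enter the cycle when D cyclins, bound to Cdk4 or Cdk6, begin to inactivate the retinoblastoma protein. E2F factors are then released and switch on E cyclins, the Mcm helicase and the nucleotide synthesis enzymes of S phase. A later wave of genes, driven through B-Myb, FoxM1 and the MuvB core, supplies the cyclins, kinases and spindle proteins of mitosis. In growth cartilage, columns of dividing chondrocytes lengthen the bone before the cells leave the cycle and enlarge, and in marrow the erythroid, granulocytic and B lymphoid precursors divide rapidly.

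The libraries held 44218720 to 169323978 UMIs, and 10028 to 16254 cells per library passed the filter of at least 1000 UMIs, 500 genes and at most 15% mitochondrial UMIs. Median depth was 3103 and 3168.5 UMIs per cell on days 7 and 8 but 7706.5 and 6563.5 on days 10 and 12. Cells were assigned to 17 classes by 8 markers each, called gated cells here. Each class with at least 30 cells in a library had at least 7 of its markers 2-fold above the other gated cells of that library. The cells were chosen by these same markers, so this is no independent check of the class names. Cartilage transcripts were found in nearly every cell, so chondrocytes were gated by the share of UMIs on cartilage markers, a rule adopted after the data were seen. The gates placed 96.0%, 85.2%, 62.2% and 76.1% of cells on days 7, 8, 10 and 12. Between 72 and 126 barcodes were shared by most pairs of libraries and 282 by days 10 and 12, and leaving such cells out moved no count of called members in the 3 tests below by more than 1.

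The share of cells with at least 3 members detected, after every cell was thinned to 1000 UMIs, was 10.6%, 19.0%, 42.6% and 32.2% over all cells on days 7, 8, 10 and 12. Skeletal cells here were the chondrocyte, tendon, fibroblast, osteoblast and reticular stromal classes. Blood cells were all hematopoietic classes, with monocytes or macrophages and osteoclasts among them, and endothelial and mural cells were in neither group. Blood cells together lay above skeletal cells together on every day. Skeletal cells had 9.73%, 16.2%, 19.2% and 21.5%, and blood cells 34.2%, 36.6%, 49.7% and 43.4%. Summed levels of the members, as CPM (the UMIs of the genes scaled to a common total per class and library), were 1621, 2259, 1862 and 2097 in skeletal cells and 3769, 4365, 8965 and 6814 in blood cells. The make-up of the blood cells differed between days, with 155 gated blood cells on day 7 and 5093 on day 12. Monocytes or macrophages were 85 and 1333 of these, and osteoclasts 30 and 754. Intervals given with shares are exact Clopper-Pearson intervals at 95%, and those with CPM are exact Poisson intervals; both cover counting error only, and with 1 library per day no test between days was possible.

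Hematopoietic precursors had the highest shares. Granulocyte progenitors stood at 89.3% on day 10 (interval 83.1 to 93.7, 149 cells) and 95.5% on day 12 (89.8 to 98.5, 111 cells). Cells gated as stem or multipotent progenitors stood at 87.5% on day 12 (78.2 to 93.8, 80 cells). Erythroid cells had 95.5% on day 8 (84.5 to 99.4, 44 cells), 53.1% on day 10 (50.8 to 55.4) and 74.1% on day 12 (71.2 to 76.8). Hemoglobin took 36.3% of the UMIs of erythroid cells on day 10 and 22.4% on day 12, which leaves fewer UMIs for other genes in a thinned cell; its part in the lower share of day 10 was not tested. Cells of the B lineage had 71.9%, 56.0% and 53.4% on days 8, 10 and 12, and T or NK cells 39.3% and 41.9% on days 10 and 12. The spread within erythroid cells was wide: on day 10 those with at least 8000 UMIs had 73.3% and those with 4000 to 8000 UMIs 31.6%.

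Endothelial cells had 51.1% on day 7 (35.8 to 66.3, 45 cells), 42.5% on day 8, 38.4% on day 10 and 36.6% on day 12 (32.2 to 41.2, 467 cells). Monocytes or macrophages had 18.8%, 30.6%, 29.4% and 23.8%, mural cells, which wrap small vessels, 24.2%, 31.4%, 29.3% and 24.8%, and neutrophils 23.1% and 21.1% on days 10 and 12. Osteoblasts had 11.3%, 25% and 34.9% on days 8, 10 and 12. Fibroblasts had 11.2%, 19.8%, 18.3% and 12.9%, and tendon cells 10.0%, 15.9%, 16.8% and 6.11%, the last being the lowest share of any class with at least 30 cells.

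**Figure D1:**
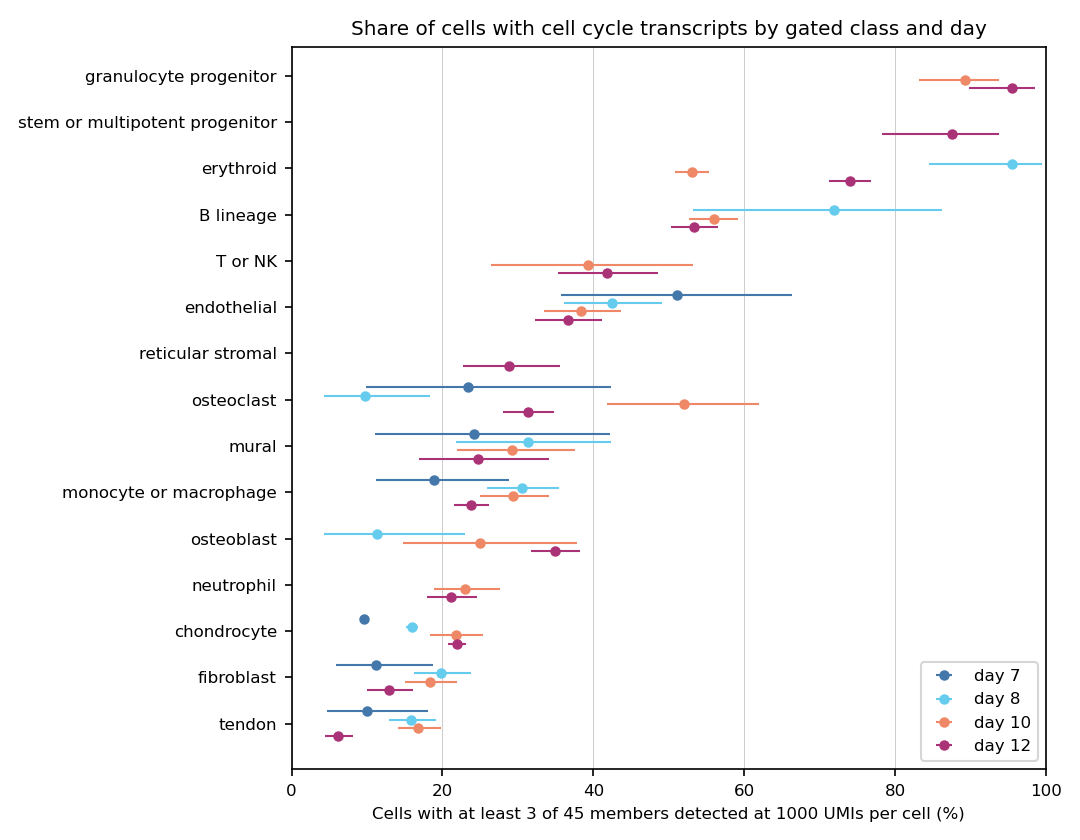
Share of gated cells (%, x axis) with at least 3 of the 45 members detected at 1000 UMIs per cell, by class (y axis) and day (colour), with exact 95% intervals, for classes of at least 30 cells. Granulocyte progenitors lie between 89.3% and 95.5%, and tendon cells between 6.11% and 16.8%.

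Osteoclasts, which form by fusion of monocytic precursors and do not divide, were taken as a class that should hold few of these transcripts, although precursors in the gate were not counted apart. Their share was 23.3% on day 7 (9.93 to 42.3, 30 cells), 9.76% on day 8, 52.0% on day 10 (41.8 to 62.0, 102 cells) and 31.3% on day 12, at median depths of 11323, 9108, 4727.5 and 16738.5 UMIs. The day 10 value split by depth, at 82.0% in the 50 cells under 4000 UMIs and 23.1% in the 52 deeper cells. Chondrocytes, at median depths of 3072.5, 3238, 15067.5 and 8348 UMIs, lay below the osteoclast share on days 7, 10 and 12 and above it on day 8. Their summed members on day 7 were 1601 CPM against 1129 CPM in osteoclasts. On day 12 the order was reversed, at 1886 CPM in chondrocytes against 3408 CPM in osteoclasts. The chondrocyte share is therefore given as a value on all 4 days and not read as a share of dividing cells. Monocytes or macrophages, fibroblasts and tendon cells also lay below the osteoclast share on days 7, 10 and 12. So did mural cells and neutrophils on days 10 and 12, and endothelial cells, osteoblasts and T or NK cells on day 10. The shares of these classes are likewise given as values only. Granulocyte progenitors on days 10 and 12 and erythroid cells on days 8 and 12 had intervals above that of osteoclasts on the same day. On day 10 the erythroid and osteoclast intervals overlapped.

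Chondrocytes made up 10382, 7783, 556 and 4484 of the gated cells on days 7, 8, 10 and 12. Their share was 9.67%, 16.0%, 21.8% and 21.9%, so it was more than 2-fold higher on day 12 than on day 7 (log2 ratio 1.18). The summed level of the members moved far less, at 1601, 2176, 1841 and 1886 CPM, and the share of cells with at least 10 members was 1.71%, 3.57%, 1.44% and 2.10%. On days 10 and 12 the chondrocytes with at least 3 members had median depths of 4744 and 3044 UMIs, and the others 16020 and 9184. Those under 4000 UMIs had shares of 8.02%, 14.05%, 47.1% and 42.1% on days 7, 8, 10 and 12, while those with at least 4000 UMIs had 13.3%, 19.95%, 14.9% and 13.6%. Once the shallow cells were left out, that log2 ratio came to 0.029. Markers of the blood classes moved with the shallow cells, at 337, 500, 3294 and 3552 CPM summed over the marker list on days 7, 8, 10 and 12, against 296, 477, 767 and 905 CPM in the deeper chondrocytes; their part in the result was not tested.

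**Figure D2:**
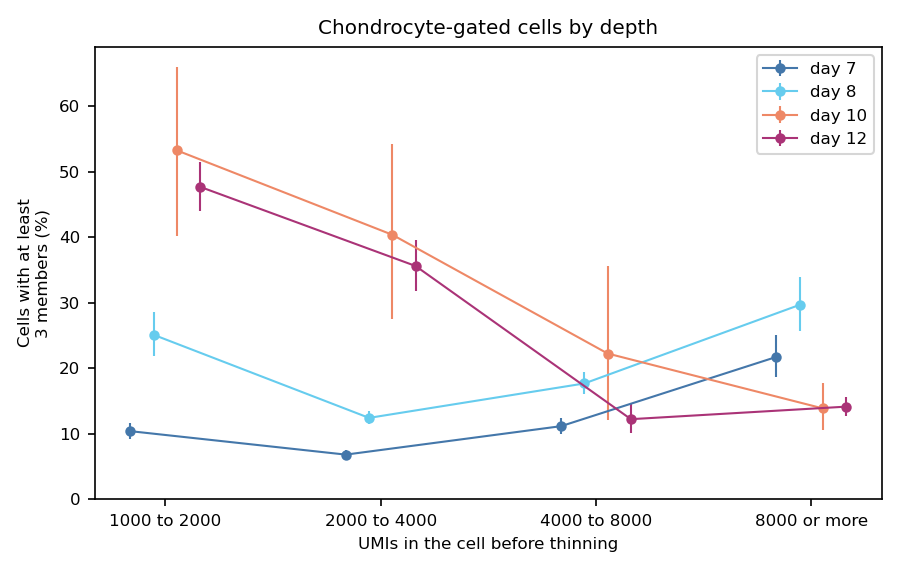
Share of chondrocyte-gated cells with at least 3 members (%, y axis) by the UMIs of the cell before thinning (x axis) and day (colour), with exact 95% intervals. Under 4000 UMIs the points of days 10 and 12 lie above those of days 7 and 8, and at 8000 or more UMIs they lie below them.

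D cyclins, which couple growth signals to the cycle, differed by lineage in which paralog held the largest share of UMIs. A captured transcript gives 1 UMI whatever its length in a 3′ library. Capture may differ between paralogs and was not measured, so these are shares of UMIs and not of transcripts. Ccnd2 held 57.0% to 85.5% of D cyclin UMIs in chondrocytes, tendon cells, fibroblasts, osteoblasts, reticular stromal cells and mural cells in every library. Ccnd1 led in endothelial cells, at 69.2%, 69.7%, 64.1% and 53.7% on days 7, 8, 10 and 12. It also led in monocytes or macrophages, at 70.3%, 65.2%, 68.4% and 47.9%. Ccnd3 led in erythroid cells with 60.0%, 68.3% and 78.7% on days 8, 10 and 12, and in neutrophils with 68.5% and 77.3% on days 10 and 12. In the B lineage Ccnd2 held 50.0% and Ccnd3 40.0% on day 8, from 50 UMIs, but Ccnd3 held 67.8% and 60.5% on days 10 and 12. Granulocyte progenitors were a blood class in which Ccnd2 led, with 63.9% and 69.1%, as were T or NK cells with 65.4% and 55.7% on days 10 and 12. It also led in stem or multipotent progenitors on day 12, with 57.6%. Osteoclasts changed between days: Ccnd2 held 72.7% and 69.2% on days 7 and 8, from 11 and 39 UMIs, and Ccnd1 led with 44.7% and 55.3% on days 10 and 12.

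**Figure D3:**
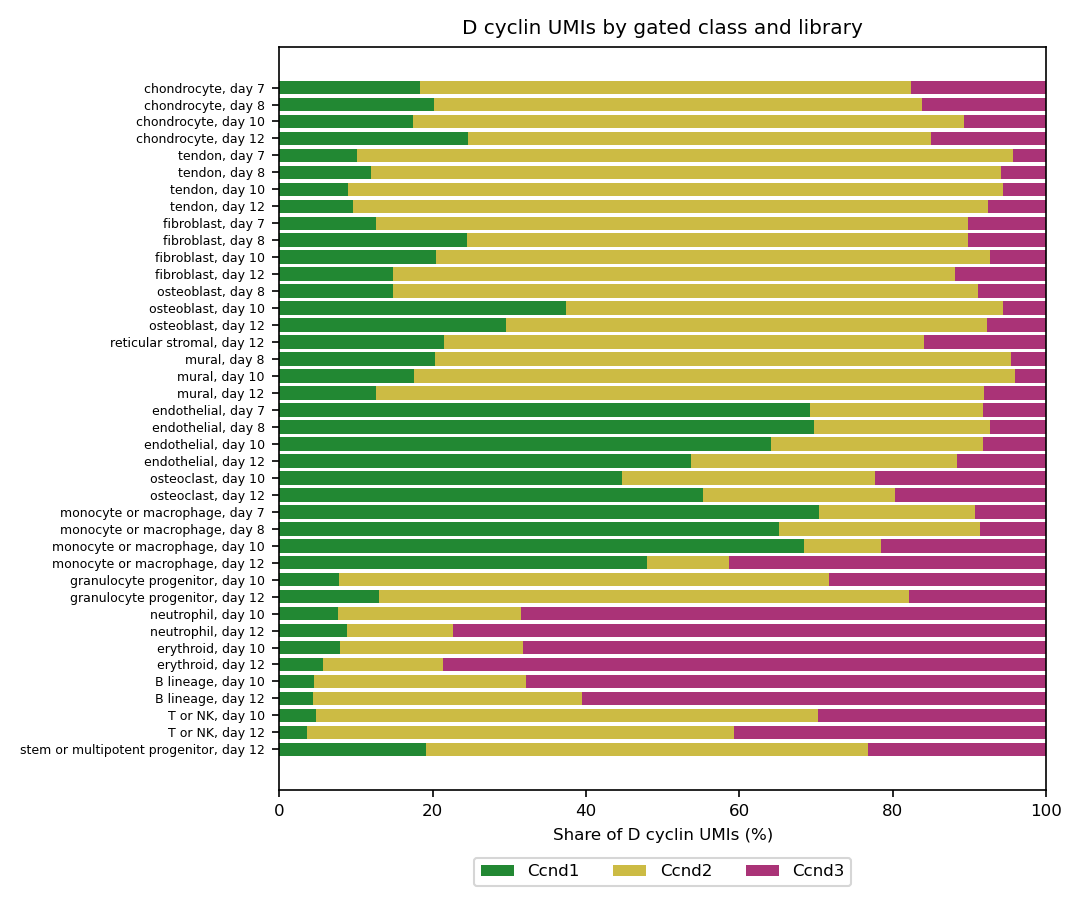
Share of D cyclin UMIs (%, x axis) from Ccnd1, Ccnd2 and Ccnd3 in each class and library with at least 100 such UMIs (y axis). Ccnd2 fills most of the skeletal bars, Ccnd1 most of the endothelial bars and Ccnd3 most of the erythroid and neutrophil bars.

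Ccnd2 was highest in tendon cells on days 7 and 8 and in mural cells on days 10 and 12. Tendon cells held 711, 639, 524 and 439 CPM on days 7, 8, 10 and 12, and mural cells 605, 594, 624 and 456 CPM. Chondrocytes held 241, 256, 363 and 217 CPM, and the ranges of tendon and mural cells overlap each other but not that of chondrocytes. Ccnd1 was highest in endothelial cells, at 274, 409, 410 and 326 CPM, and monocytes or macrophages held 166, 136, 228 and 196 CPM. Mural cells held 71.7, 160, 140 and 72.2 CPM, above monocytes or macrophages on day 8. Ccnd3 was highest in the B lineage on days 10 and 12, at 306 and 362 CPM, with neutrophils at 154 and 322, T or NK cells at 184 and 305 and erythroid cells at 137 and 288 CPM. In monocytes or macrophages Ccnd3 stood at 21.9 and 18.1 CPM on days 7 and 8 and at 71.5 and 169 CPM on days 10 and 12, a log2 ratio of 2.86 between days 12 and 7. Over the 45 sums of a class and a library, log2(CPM + 1) of Ccnd2 and Ccnd1 had Pearson correlations of -0.19 and -0.13 with that of the summed S and G2/M members, and Ccnd3 of 0.58. The other 42 members had correlations from 0.66 to 0.96, described without a test because the sums share libraries and most members are part of the total.

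E cyclins activate Cdk2 at the start of S phase. Ccne1 gave at most 50.0% of E cyclin UMIs in every class and library, and Ccne2 the rest. Erythroid cells of day 10 held 3938 E cyclin UMIs and 3854 D cyclin UMIs, whereas chondrocytes of day 12 held 1319 and 17826. Erythroid cells had 113, 153 and 213 CPM of Ccne2 on days 8, 10 and 12 and 49.3, 52.7 and 83.2 CPM of Ccne1. Chondrocytes had 11.3, 14.4, 21.5 and 21.2 CPM of Ccne2 on days 7, 8, 10 and 12 and 4.20, 3.99, 4.99 and 5.39 CPM of Ccne1.

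For the comparison of lineages, counts were summed per class and library and tested with edgeR's quasi-likelihood test with a term for the library, Benjamini-Hochberg adjusted over all genes. The 4 libraries differ in age, so they stand in for replicates and the p-values measure the spread between these libraries. In such sums, fewer dividing cells and less RNA per dividing cell cannot be told apart. The blood sums include osteoclasts, as defined above. In blood against skeletal cells 40 of the 45 members passed an adjusted p of 0.05 upward and 1 downward, where 23.2% of the 17912 genes tested were called higher and 26.9% lower. The median log2 fold change was 1.65 over the members and -0.04 over all genes. All 8 replication genes, 3 nucleotide synthesis genes, 9 mitotic cyclins and kinases, 5 checkpoint genes and 2 E cyclins were higher, with 6 of 7 chromosome and kinetochore genes and 7 of 8 spindle genes. Without the day 12 library 32 members were called higher, and without cells under 4000 UMIs 34.

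Rrm2, a subunit of the enzyme that makes deoxynucleotides, had the largest difference. It stood at 94.7, 101.1, 501 and 242 CPM in blood cells on days 7, 8, 10 and 12 and at 15.8, 26.2, 42.3 and 49.3 CPM in skeletal cells. The groups did not overlap, and the log2 fold change was 2.36 ± 0.29 (SE, edgeR adjusted p = 0.00069). Mki67, which coats mitotic chromosomes, stood at 198, 212, 584 and 417 CPM in blood cells against 42.9, 61.8, 52.0 and 74.0 CPM (2.25 ± 0.30, edgeR adjusted p = 0.00091). The smallest upward change that passed was that of Anln, an actin-binding protein of the cleavage furrow, at 0.75 ± 0.20 (edgeR adjusted p = 0.020), and it did not pass without the day 10 library (0.43) or the day 12 library (0.65). Ccnd2 went the other way, at 54.3, 74.7, 80.3 and 90.2 CPM in blood against 248, 284, 430 and 264 CPM in skeletal cells (-2.25 ± 0.19, edgeR adjusted p = 0.00014). Ccnd1 and Ccnd3 did not pass, with log2 fold changes of -0.32 ± 0.23 and 0.35 ± 0.55. Ccnd3 was lower in blood than in skeletal cells on days 7 and 8 and higher on days 10 and 12, and its estimate was -0.30 without day 10 and -0.21 without day 12.

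Endothelial cells line the vessels that invade cartilage. Against chondrocytes 39 of 45 members were higher and 2 lower, where 23.6% of 13835 genes tested were called higher and 28.2% lower, and the member median was 0.92 against -0.06 over all genes. Tyms, which makes thymidylate, stood at 225, 166, 70.6 and 69.7 CPM in endothelial cells on days 7, 8, 10 and 12 and at 20.7, 29.3, 24.96 and 17.4 CPM in chondrocytes. Its log2 fold change was the largest, at 1.95 ± 0.26 (edgeR adjusted p = 0.00019). Ccnd1 followed, with endothelial levels given above and 69.2, 81.2, 88.0 and 88.7 CPM in chondrocytes (1.74 ± 0.13, edgeR adjusted p = 4.6e-06). Ccnd2 was lower (-1.18 ± 0.20, edgeR adjusted p = 0.00091), and so was Ccnd3 (-0.54 ± 0.20, edgeR adjusted p = 0.046), which did not pass without day 7 (-0.40) or without day 8 (-0.48). Mcm7, a helicase subunit, had the smallest upward change that passed, at 0.48 ± 0.17 (edgeR adjusted p = 0.034), and did not pass in DESeq2 (0.44) or without day 7, 8 or 12 (0.39 to 0.41). Both E cyclins, Rrm2 and Pbk did not pass. Without the term for the library 28 members were called higher.

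Monocytes or macrophages had 35 of 45 members higher than chondrocytes and 1 lower, where 26.3% of 14501 genes tested were called higher and 34.1% lower, and the member median was 0.91 against -0.15. This comparison and the endothelial one use the same chondrocyte sums. The blood and skeletal sums also contain the monocytes or macrophages and the chondrocytes, so the 3 comparisons are not independent. Mcm3, a helicase subunit, stood at 82.1, 89.6, 79.9 and 85.3 CPM in monocytes or macrophages and at 18.3, 21.3, 22.2 and 25.4 CPM in chondrocytes on days 7, 8, 10 and 12 (1.62 ± 0.13, edgeR adjusted p = 3.7e-05). All 8 replication genes were higher, against 5 of 7 chromosome and kinetochore genes and 6 of 8 spindle genes. Cdk1, the mitotic kinase, had the smallest upward change that passed, at 0.55 ± 0.13 (edgeR adjusted p = 0.0093), and did not pass without day 8 (0.52). Ccnd2 was again lower, at 47.9, 54.6, 33.9 and 43.8 CPM in monocytes or macrophages (-2.91 ± 0.23, edgeR adjusted p = 3.7e-05). Across the 3 comparisons 32 members were called higher in each. The share of all genes called higher in all 3 was not computed, and the shared cells make some overlap likely.

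**Figure D4:**
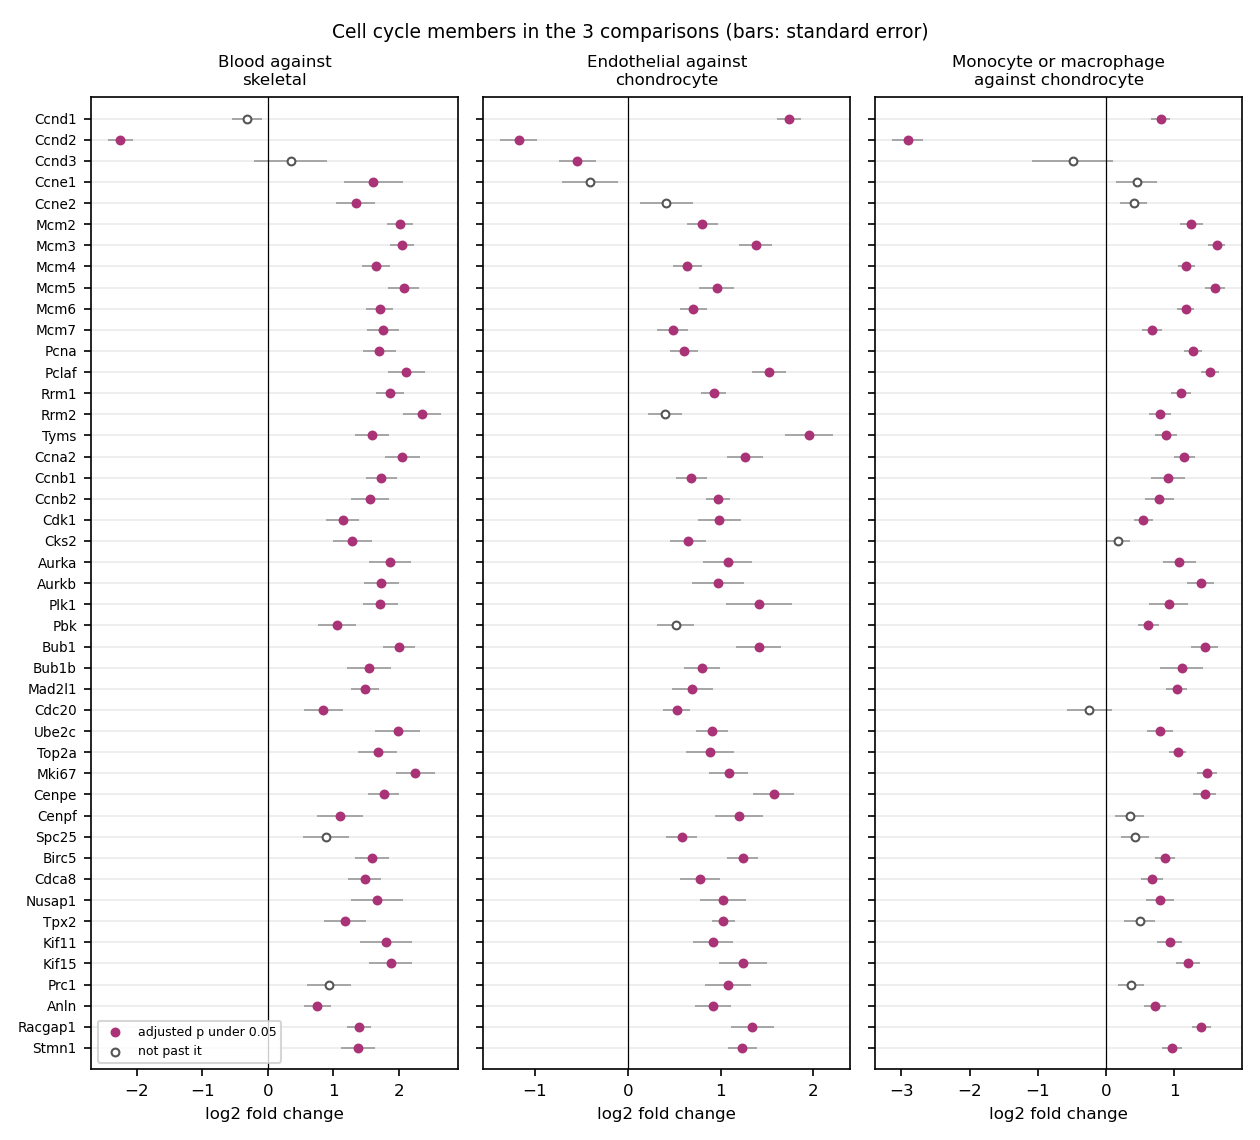
Log2 fold change (x axis) of each of the 45 members (y axis) in the 3 comparisons, with standard errors as bars and filled points where the edgeR adjusted p was under 0.05. Ccnd2 lies left of 0 in each panel, at -2.25, -1.18 and -2.91.

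Replication genes differed in the class that held the highest median level. By this median, Mcm2, Mcm3, Mcm5, Mcm6 and Mcm7 were highest in granulocyte progenitors (2 libraries), Mcm4 and Pcna in erythroid cells and Pclaf in the B lineage (3 libraries each). The medians cover unlike days, and on days 10 and 12 alone the order changed for some genes. Mcm2 then held 146 and 262 CPM in erythroid cells against 90.2 and 222 CPM in granulocyte progenitors. Mcm7 held 240 and 338 CPM against 186 and 296 CPM. Mcm6 held 237 CPM in erythroid cells and 264 CPM in the B lineage on day 10, against 228 CPM in granulocyte progenitors. Mcm3 held 152 and 317 CPM in granulocyte progenitors on days 10 and 12, against 129 and 214 CPM in erythroid cells and 147 and 217 CPM in the B lineage. Stem or multipotent progenitors, outside the ranking by median, held 375 CPM of Mcm6 and 267 CPM of Mcm4 on day 12. These were the highest values of any class and library, which held for no other Mcm gene. Pcna, the sliding clamp of the polymerases, held 1296, 1266 and 1519 CPM in erythroid cells on days 8, 10 and 12 and 908, 1119 and 1281 CPM in the B lineage. It held 504 and 654 CPM in granulocyte progenitors on days 10 and 12, and 136, 164, 175 and 177 CPM in chondrocytes on days 7, 8, 10 and 12. Pclaf, which binds the clamp, was highest in the B lineage at 939, 780 and 826 CPM, above erythroid cells at 434, 307 and 412 CPM. Rrm1, the large subunit of the enzyme to which Rrm2 belongs, held 207, 280 and 406 CPM in erythroid cells and 18.5, 26.3, 29.4 and 36.7 CPM in chondrocytes. Rrm2 itself held 729, 909 and 940 CPM in erythroid cells and 253, 391 and 357 CPM in the B lineage. Of the 45 members, 30 had their highest median level over libraries in erythroid cells, 7 in the B lineage and 5 in granulocyte progenitors, among classes with at least 2 libraries of 30 cells. Copies of Pcna, Tyms, Ccnb1, Ccnb2, Ccnd3 and Stmn1 elsewhere in the genome took at most 0.170% of the UMIs of the pair.

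E2F factors are known to bind short GC-rich letters before the start of many S phase genes. Promoter sequences were taken from RefSeq (GRCm38.p6, a different build from the GRCm39 of the counts) and matched 36 of the 45 members. Searched on both strands in the 250 bases before the start, the letters TTCCCGC or alternatively TTCGCGC or the form TTGGCGC or the form TTGCCGC were found in 5 of 11 matched S phase members, 4 of 23 matched G2/M members and 7.89% of all 32851 windows. With 1 more T in front, the letters TTTCCCGC or alternatively TTTCGCGC or the form TTTGGCGC or the form TTTGCCGC were found in 3 of 11, 2 of 23 and 1.86%. The last 150 bases before the start are shown for the 2 S phase genes with the most UMIs among those with E2F letters inside these 150 bases, which leaves out Rrm2, whose match lies farther from the start. They are Mcm6 (chr1:128359706-128359855, minus strand) and Rrm1 (chr7:102441545-102441694, plus strand), with the E2F letters in capitals, which overlap where both strands match.
Mcm6: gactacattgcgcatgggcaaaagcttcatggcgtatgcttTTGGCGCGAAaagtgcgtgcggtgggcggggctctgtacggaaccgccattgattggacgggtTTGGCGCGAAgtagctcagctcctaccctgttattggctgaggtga
Rrm1: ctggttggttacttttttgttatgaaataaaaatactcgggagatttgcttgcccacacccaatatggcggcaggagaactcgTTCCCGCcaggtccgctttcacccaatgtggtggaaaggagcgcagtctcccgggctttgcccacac
A match is a description of letters and not of binding. In the tests, Mcm6 and Rrm1 had log2 fold changes of 1.70 and 1.87 in blood against skeletal cells.

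The CHR and CCAAT letters are known from promoters of mitotic genes. The CHR letters TTTGAA were in 8 of 23 matched G2/M members, 1 of 11 matched S phase members and 16.0% of all windows, and the CCAAT letters in 18 of 23, 9 of 11 and 33.8%. The 150 bases before the start are shown for the 2 G2/M genes with both kinds of letters there and the most UMIs, Top2a (chr11:99024190-99024339, minus strand) and Mki67 (chr7:135716380-135716529, minus strand), with CHR and CCAAT letters of either strand in capitals.
Top2a: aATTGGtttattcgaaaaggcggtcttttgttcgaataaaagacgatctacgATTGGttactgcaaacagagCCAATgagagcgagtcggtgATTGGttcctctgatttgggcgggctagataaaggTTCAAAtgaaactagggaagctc
Mki67: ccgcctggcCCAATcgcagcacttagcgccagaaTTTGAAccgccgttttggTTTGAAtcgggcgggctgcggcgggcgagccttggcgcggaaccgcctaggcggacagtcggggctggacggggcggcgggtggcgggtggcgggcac
Top2a, which untangles replicated DNA, held 532, 732 and 801 CPM in erythroid cells and 624, 738 and 794 CPM in the B lineage on days 8, 10 and 12. It held 353, 238, 95.2 and 187 CPM in endothelial cells and 66.3, 102, 74.1 and 85.7 CPM in chondrocytes on days 7, 8, 10 and 12. Mki67 held 828, 992 and 1464 CPM in erythroid cells and 324, 467 and 532 CPM in the B lineage. Ube2c, which tags mitotic cyclins for destruction, reached 389, 534 and 889 CPM in erythroid cells and 24.8, 40.4, 26.0 and 47.7 CPM in chondrocytes. Cdc20, its partner in activating that destruction, held 123, 101.4 and 168 CPM in erythroid cells and 174, 137 and 163 CPM in the B lineage. Cdk1 held 232, 284 and 379 CPM in erythroid cells and 46.9, 71.9, 48.7 and 66.6 CPM in chondrocytes. Stmn1, which destabilises microtubules, had its highest median in the B lineage among classes with at least 2 libraries, at 1042, 846 and 1029 CPM. It held 453, 285 and 430 CPM in erythroid cells and 114, 174, 79.4 and 102 CPM in chondrocytes. Stem or multipotent progenitors, outside that ranking, held 1204 CPM of Stmn1 on day 12. Nusap1, a spindle protein, held 320, 396 and 378 CPM in erythroid cells and 27.5, 42.5, 26.8 and 24.9 CPM in chondrocytes.

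Other cell cycle genes outside the set were taken from lists of inhibitors, pocket proteins, E2F factors and licensing factors. Cdkn1c, an inhibitor that holds cells out of the cycle, stood at 1212, 1295, 923 and 756 CPM in chondrocytes on days 7, 8, 10 and 12, against 76.0, 127, 70.6 and 58.6 CPM in endothelial cells. It was lower in blood than in skeletal cells (log2 fold change -4.39 ± 0.20), in endothelial cells than in chondrocytes (-4.03 ± 0.16) and in monocytes or macrophages than in chondrocytes (-5.03 ± 0.24), with edgeR adjusted p of 5.1e-05, 1.1e-07 and 9.5e-06. Of 7 inhibitors, 3 were lower and 1 higher in blood, 2 lower and 1 higher of 6 tested in endothelial cells, and 3 lower and 0 higher of 6 tested in monocytes or macrophages. Over all genes tested, 26.9%, 28.2% and 34.1% were lower and 23.2%, 23.6% and 26.3% higher in the 3 comparisons. These short lists were not tested against those shares, and the endothelial inhibitor counts lie near them. Cdkn1a was lower in each, at -1.51, -1.35 and -0.79. Cdkn2b was lower in blood (-1.42) and in monocytes or macrophages (-2.40) but higher in endothelial cells (1.93 ± 0.33, edgeR adjusted p = 0.00089). Among 8 E2F factors, 6, 3 and 4 were higher in the 3 comparisons in that order and 1 was lower in each. E2f2 had the largest difference in blood cells (3.64 ± 0.29, edgeR adjusted p = 0.00012), and the repressor E2f7 the largest in endothelial cells (2.84 ± 0.22, edgeR adjusted p = 5.4e-06). Rb1, the retinoblastoma protein, was higher in all 3, at 2.17, 1.27 and 2.06. Cdk6 was higher in blood (1.33) and in monocytes or macrophages (0.78) but lower in endothelial cells (-0.90).

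Genes of the dissociation response moved with the lineage as well as with the day. Of 8 such genes, 5, 6 and 4 were lower in the 3 comparisons and 0, 0 and 1 higher, the last being Hspa1a in monocytes or macrophages (0.69). Over all genes tested, 26.9%, 28.2% and 34.1% were lower and 23.2%, 23.6% and 26.3% higher. Hspa1a, a heat shock gene, stood at 274 and 460 CPM in chondrocytes on days 7 and 8 and at 14.2 and 23.6 CPM on days 10 and 12, and at 597, 893, 8.55 and 10.5 CPM in endothelial cells. The libraries of days 7 and 8 thus stood apart from those of days 10 and 12 in this response and in depth, and its part in the differences between days was not tested.

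Between day 7 and day 12, 7 classes had at least 30 cells in both libraries, and a member was counted as higher or lower from 1.5-fold, with 1 UMI added and at least 20 UMIs over both. Tendon cells, with 90 and 671 cells, had 29 of 44 members lower and 2 higher on day 12, where 41.1% of 11631 genes were lower and 12.6% higher. Summed over members, their level was 2523 CPM at the first age and 1158 CPM at the last (log2 ratio -1.12, interval -1.23 to -1.02), or -0.74 without hemoglobin, collagen and mitochondrial genes in the total. The 8 dissociation response genes summed to 8886 and 1702 CPM in tendon cells of those ages. Cdca8, a subunit of the Aurora B complex, had the lowest counted ratio, at -3.17. Mcm2 had the highest, at 1.79, starting from 0 UMIs, where the exact interval reaches 11.1 CPM. Osteoclasts, with 30 and 754 cells, had 39 of 45 higher and 2 lower, where 24.8% of 11912 genes were higher and 27.3% lower. Their summed members stood at 1129 and 3408 CPM (log2 ratio 1.59, interval 1.44 to 1.75), and with each cell weighed alike at 1000 UMIs the ratio was 0.94, with 11 of 37 counted members higher and 7 lower. Ccnd2 had the lowest ratio, at -1.08. Rrm2 had 0 UMIs in the 30 osteoclasts of day 7, where the exact interval reaches 11.4 CPM, and 65.7 CPM on day 12.

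Endothelial cells, with 45 and 467 cells, had 21 of 45 members lower and 9 higher, where 18.5% of 11187 genes were lower and 34.1% higher. Summed members stood at 5956, 4919, 3148 and 4202 CPM on days 7, 8, 10 and 12, a log2 ratio of -0.50 between day 12 and day 7 (interval -0.57 to -0.44). Cks2 had the lowest ratio, at -2.30, and Ccnd2 the highest, at 1.19. From day 8 the counts were 10 higher and 8 lower, and from day 7 to day 10 they were 1 and 28. Chondrocytes had 19 members higher and 3 lower, where 32.3% of 19006 genes were higher and 27.7% lower, with a summed log2 ratio of 0.24. Mcm2 was the highest at 1.48 and Cks2 the lowest at -1.01. Measured from day 8, the chondrocyte ratio was -0.21 with 7 members higher and 9 lower, and in cells of at least 4000 UMIs it was -0.052 from day 7 with 12 and 7. Monocytes or macrophages had 13 higher and 5 lower, where 33.6% of 12085 genes were higher and 18.9% lower (summed log2 ratio 0.23), with Ccnd3 the highest at 2.86 and Tyms the lowest at -1.31. Over thinned cells 7 of 42 counted members were higher and 14 lower. Fibroblasts had 14 higher and 5 lower of 45, where 29.8% of genes were higher and 18.7% lower, and mural cells 13 and 6 of 43, where 33.5% were higher and 19.0% lower.

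Members did not move as a block between days. Ccnb2, a mitotic cyclin, Cks2, a small subunit of Cdk complexes, and Tyms were lower on day 12 in all 7 classes, from -0.61 to -1.62 for Ccnb2, from -0.08 to -3.02 for Cks2 and from -0.21 to -1.71 for Tyms. Some of the exact intervals included 0, among them Cks2 (-0.62 to 0.51) and Tyms (-1.07 to 0.80) in osteoclasts and Ccnb2 in mural cells (-1.51 to 0.22). All 7 classes come from the same libraries of days 7 and 12, so they do not replicate each other. By the sign of the ratio alone, the other 42 members had at least 1 class in each direction. Some of these intervals included 0 too, as for Racgap1, which was below 0 only in endothelial cells (-0.14, interval -0.57 to 0.33). In chondrocytes Cks2 stood at 76.9, 134, 44.9 and 38.1 CPM on days 7, 8, 10 and 12, with days 10 and 12 below days 7 and 8.

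**Figure D5:**
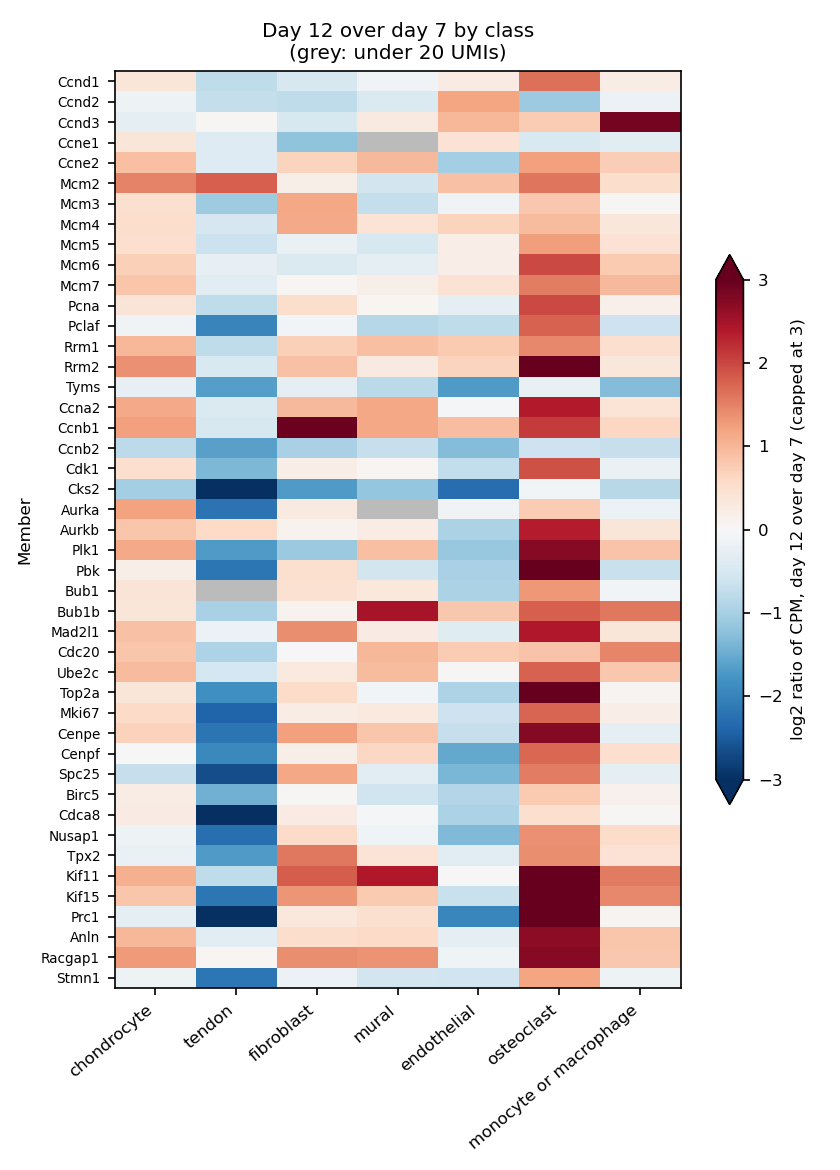
Log2 ratio of CPM on day 12 over day 7 (colour, capped at 3 in each direction) for each member (rows) in the 7 classes with at least 30 cells in both libraries (columns), with grey where a member had under 20 UMIs. The osteoclast column is mostly above 0 and the tendon column mostly below, and Ccnb2, Cks2 and Tyms are below 0 in every column.

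The balance of S phase and G2/M transcripts varied between classes and days. In cells thinned to 1000 UMIs the S phase members took 25.3%, 32.8%, 41.8% and 37.2% of the S and G2/M UMIs in endothelial cells on days 7, 8, 10 and 12, and 36.5%, 30.8%, 39.0% and 38.2% in chondrocytes. Erythroid cells had 37.1%, 34.0% and 32.7% on days 8, 10 and 12, and granulocyte progenitors 40.0% and 50.9% on days 10 and 12.

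Genes outside the set followed the same pattern over the 45 sums. The 10 with the highest Pearson correlation with the summed S and G2/M members, on log2(CPM + 1), were Smc4 (0.97), Shcbp1, Smc2, Dbf4, Cenpa, Ncapg2, Tacc3, Clspn, Kif22 and Tmpo (0.94). Smc4 and Smc2 are condensin subunits, Cenpa is the centromeric histone H3 and Dbf4 activates the kinase that fires origins. Smc4 ranged from 66.2 to 1266 CPM over the sums.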

How the data were processed

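Single-cell 3′ RNA libraries (MobiDrop) of femoral epiphyseal cells were analysed from the deposited UMI count matrices, 1 per day. Counts were made on GRCm39 per the submitters' processing notes, while aligner and cell caller were not given in the sources used here. Members and lists were chosen with earlier results of these data known. Cells with at least 1000 UMIs, 500 genes and at most 15% mitochondrial UMIs were kept. No doublet caller was run. Cells without the lead in markers given below stayed ungated, but a gated cell could still hold markers of another class. The chondrocyte gate asked for no lead over the other skeletal classes.

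The gate as first written (at least 3 markers and a lead of 2 over every class) put 97.2% of day 7 cells into chondrocytes and 0 into monocytes or macrophages, so it was replaced after seeing the data, with the same markers. A chondrocyte had at least 2% of its UMIs on 8 cartilage markers, at least 3 of them and a lead of 2 over non-skeletal classes. Other classes needed 3 markers, a lead of 2 and a cartilage share under 2%. The erythroid gate had 7 measured markers. The share at 1.5% to 2.5%, near the limit, was 1.76% to 7.44% of cells per library.

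Shares were computed after each cell was thinned to 1000 UMIs. Sums per class and library, in classes with at least 30 cells, were tested with edgeR 4.0.16 (quasi-likelihood, TMM, filterByExpr, library term) with DESeq2 1.42.0 as an alternative, in R 4.3.3. Tested on simulated data with 200 changed genes, 17%, 73% and 49% of 2-fold and 97%, 100% and 97% of 4-fold changes were recovered in the blood, endothelial and monocyte or macrophage comparisons (17912, 13835 and 14501 genes). False calls numbered 18, 16 and 10 in that order. Genes were named by a rule: the D and E cyclins, the 2 members with the most UMIs in each other role, the largest and smallest change per test, the highest and lowest day ratio per class, members of other lists past the threshold or high in UMIs, and the 10 most alike non-members. Mcm6 was named for its printed promoter, and Ccnb2, lower in all 7 classes, and the other Mcm genes, by their top class, after their values were seen. E2F letters of 7 bases were the ones intended, but 8-base forms were run first; both are given.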

Additional observations from a re-analysis of the deposited data

How the results depend on the processing

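Counts of members called higher stayed within 1.5 times the main value in every setting tried for blood against skeletal cells (32 to 42 higher), for endothelial cells (28 to 41 higher) and for monocytes or macrophages (31 to 39 higher). With no replicate block, meaning without the library term that pairs both groups of a library, the counts were 39, 28 and 31 higher and 1, 2 and 1 lower. Members called lower in endothelial cells numbered 1 rather than 2 with a lead of 3 markers and with the cartilage limit at 3%, and 1 to 2 when 1 library was left out; in monocytes or macrophages they numbered 1 to 2 when 1 library was left out. The gate as first written could not be run in any of the 3 tests, since day 7 then held 4 endothelial, 0 monocyte or macrophage and 6 blood cells. Signs reversed for 3 members that did not pass. Leaving out 1 library, Ccnd3 in blood ranged from -0.30 (no day 10; -0.21 with no day 12) to 0.85, and in monocytes or macrophages Ccnd3 ranged from -1.18 to 0.029 (no day 8) and Cdc20 from -0.70 to 0.013 (no day 7). For Cks2, monocyte or macrophage against chondrocyte, log2 fold change without cells under 4000 UMIs was -0.018.

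The chondrocyte log2 share ratio of day 12 to day 7 was 1.18, and 0.69 with at least 2 members, 0.62 at 2000 UMIs, 1.38 without D cyclins, Stmn1 and Cks2, 0.92 at a 3% limit, 0.029 without cells under 4000 UMIs and 1.39 with the gate as first written. The endothelial one was -0.48 and 0.11 when not thinned, and the tendon one turned to 1.04 when not thinned. The chondrocyte ratio of summed members was 0.24, and -0.21 from day 8, 0.20 to day 10, 0.21 with a lead of 3, 0.35 without hemoglobin, collagen and mitochondrial genes, 0.50 over thinned cells, 0.20 at a 3% limit, -0.052 without cells under 4000 UMIs and 0.69 with the gate as first written. The endothelial ratio was -0.50, and -0.23 from day 8, -0.92 to day 10, -0.40 with a lead of 3 and -0.85 over thinned cells. The monocyte or macrophage ratio was 0.23, and -0.11 from day 8, 0.40 to day 10, 0.12 with a lead of 3 and 0.051 over thinned cells. The cause of these shifts was not tested. The 3% limit, the removal of shared barcodes and of shallow cells, and the rerun of the first gate were chosen after seeing the data.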
